A study of Homo sapiens with 48 samples.

Results

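Control U2OS cells were compared after 24 h of dexamethasone and without hormone. The comparison used 16 of the 48 arrays of the study, chosen by their labels alone: 8 arrays at 24 h against 8 at 0 h, each set holding 4 NI and 4 siNS arrays. U2OS is a human osteosarcoma line, and every group of the study came from 1 stable clone of it with a transgene for the wild-type rat glucocorticoid receptor alpha, so the receptor was added in the untreated cells too. NI cells received no siRNA and siNS cells a nonspecific siRNA. Dexamethasone is a synthetic glucocorticoid. All wells were harvested together, so the 24 h cells met the hormone earlier after transfection, and both sets were at the same time after transfection at harvest. The other arrays of the study were control cells at 2 and 4 h and cells with an siRNA against Hic-5 (siHic5_2), which is found at focal adhesions and can bind nuclear receptors as a cofactor.

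The glucocorticoid receptor waits in the cytoplasm on heat shock protein chaperones, moves to the nucleus when it binds hormone, and raises genes that carry its response elements. It also lowers many genes that depend on the transcription factors AP-1 and NF-kappa-B, which is the basis of its anti-inflammatory use. In cells of the bone lineage glucocorticoids are known for slowing growth and matrix formation and for turning fuel use away from glucose.

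Levels are the authors' processed log2 values, 1 probe per gene, and differences are 24 h minus 0 h on that log2 scale from a limma fit with transfection state and replicate number as blocks. A gene was called at a Benjamini-Hochberg adjusted p under 0.05, and a probe was above background on an array where its recomputed detection p was under 0.01. In all, 6975 of 10923 genes were called (63.9%), 3419 of them higher (31.3%) and 3556 lower (32.6%), or 2309 higher and 3460 lower with every array scaled to its median. A difference of at least 1, a change of 2-fold or more, was seen in 776 called genes that were higher (7.1%) and 821 that were lower (7.52%). The 8 arrays of one time did not overlap the 8 of the other for 2916 genes (26.7%). Because so many genes were called, each count of list members is to be read against 31.3% and 32.6%. Median raw intensity of the 16 arrays was 133.6 to 178.3 over negative-control medians of 114.4 to 152.9, with 33.1 to 37.3% of probes above background at 0 h and 32.2 to 38.3% at 24 h. The first principal component (70.7% of the variance) separated the times, and the second (11.9%) set the 4 arrays with replicate number 1 (-38.3 to -27.5) apart from the other 12 (6.4 to 17.0). Where a probe was above background on only some arrays of its dimmer time, the fitted difference is printed and depends in part on the background level. In RNA of whole cultures, fewer cells that express a gene and less RNA per cell cannot be told apart.

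The mesenchymal character of the line was visible in its markers. Of 11 mesenchymal and bone markers 9 passed the filter on dim probes, among them CDH2 and COL1A1, above background on all 16 arrays. COL1A2 and NT5E did not pass the filter. Of 8 blood cell markers 1 passed, the lysosomal protein CD68, and PTPRC, CD3E and HBB did not. Of 7 endothelial markers PECAM1, CDH5, VWF, CLDN5 and ESAM did not pass. Of the 2 that did, KDR, a VEGF receptor, was at background on all 0 h arrays and above it on 7 at 24 h, at least 1.51-fold higher (means 4.89 and 6.68, limma adjusted p = 5.54e-07), and TEK, above background on 3 arrays at 0 h and 1 at 24 h, was lower (-0.40, SE 0.12, limma adjusted p = 0.0085). Neither did CDH1, KRT5, KRT19 and CLDN4 of 9 epithelial markers pass, though EPCAM, KRT8 and KRT18 were above background on all 16 arrays. Of the mesenchymal markers 7 were lower and 0 higher at 24 h (median -0.48), led by the cadherin CDH2 (-1.60, SE 0.06, limma adjusted p = 1.76e-11). Of the 5 epithelial markers that passed, 4 were lower and 1, the keratin KRT8, higher (0.76, SE 0.11, limma adjusted p = 2.05e-05). The part of these markers in the other results was not tested.

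Promoter sequences of 7 genes show what the response elements and AP-1 sites look like in genes that moved. They are the 250 bases before a RefSeq transcript start on GRCh38.p14, written 5′ to 3′ on the gene's strand, with a motif match in capitals. The first 4 hold a glucocorticoid response element-like match (GNACA and TGTNC, spaced by NNN) and the last 3 an AP-1 match (TGANTCA), each searched on both strands. FAM107A (chr3:58577392-58577641, minus strand), TXNIP (chr1:145996580-145996829, minus strand) and KCNA5 (chr12:5043629-5043878, plus strand) were higher at 24 h, and EVA1A (chr2:75569720-75569969, minus strand) was lower. CXCL8 (chr4:73740319-73740568, plus strand), IL11 (chr19:55370464-55370713, minus strand) and EMP1 (chr12:13196476-13196725, plus strand) were lower.
FAM107A: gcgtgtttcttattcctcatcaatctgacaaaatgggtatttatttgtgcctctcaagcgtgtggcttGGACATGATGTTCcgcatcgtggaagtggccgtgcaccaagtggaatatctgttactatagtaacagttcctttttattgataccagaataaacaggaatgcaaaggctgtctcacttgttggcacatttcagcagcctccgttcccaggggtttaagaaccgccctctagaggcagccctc
TXNIP: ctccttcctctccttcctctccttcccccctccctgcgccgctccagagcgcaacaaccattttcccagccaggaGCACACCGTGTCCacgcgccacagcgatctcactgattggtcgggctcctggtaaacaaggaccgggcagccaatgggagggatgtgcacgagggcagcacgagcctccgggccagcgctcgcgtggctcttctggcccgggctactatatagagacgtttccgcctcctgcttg
KCNA5: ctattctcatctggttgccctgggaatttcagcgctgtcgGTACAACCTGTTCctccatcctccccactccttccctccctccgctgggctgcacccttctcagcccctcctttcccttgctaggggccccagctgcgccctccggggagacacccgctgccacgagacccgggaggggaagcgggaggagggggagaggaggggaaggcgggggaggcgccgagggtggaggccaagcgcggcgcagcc
EVA1A: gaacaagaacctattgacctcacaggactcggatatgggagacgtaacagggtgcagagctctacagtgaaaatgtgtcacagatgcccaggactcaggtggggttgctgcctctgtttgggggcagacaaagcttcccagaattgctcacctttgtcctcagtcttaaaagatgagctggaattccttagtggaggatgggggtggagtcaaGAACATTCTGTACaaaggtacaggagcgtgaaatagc
CXCL8: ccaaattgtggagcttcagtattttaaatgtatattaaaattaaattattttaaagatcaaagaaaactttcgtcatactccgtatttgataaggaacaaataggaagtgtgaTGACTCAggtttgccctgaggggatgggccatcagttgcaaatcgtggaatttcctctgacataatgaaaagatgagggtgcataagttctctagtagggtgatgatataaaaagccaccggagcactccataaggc
IL11: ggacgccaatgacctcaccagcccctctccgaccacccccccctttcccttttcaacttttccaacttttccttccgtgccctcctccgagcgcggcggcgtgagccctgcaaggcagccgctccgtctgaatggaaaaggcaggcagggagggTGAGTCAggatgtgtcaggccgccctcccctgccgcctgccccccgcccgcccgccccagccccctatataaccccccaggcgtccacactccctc
EMP1: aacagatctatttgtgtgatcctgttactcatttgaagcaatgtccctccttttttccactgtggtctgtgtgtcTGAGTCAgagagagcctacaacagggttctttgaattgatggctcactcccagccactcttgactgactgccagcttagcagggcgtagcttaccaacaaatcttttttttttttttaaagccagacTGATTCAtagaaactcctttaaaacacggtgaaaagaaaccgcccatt

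The matches began at positions -182, -175, -210 and -37 from the start for FAM107A, TXNIP, KCNA5 and EVA1A, at -137 and -96 for CXCL8 and IL11, and at -175 and -48 for EMP1. Another start of FAM107A held a second match at -220, and the coactivator gene PPARGC1A held one at -162. Promoters on 1 chromosome were left out of the search, so a gene without one here may still have a record. A promoter was found for 8847 of the tested genes, and 0.35% of these held the response element-like letters while 6.32% held the AP-1 letters. Among called genes higher by at least 1, 12 of 612 (1.96%) held the first and 61 (9.97%) the second. Among called genes lower by at least 1, 2 of 626 (0.319%) held the first and 82 (13.1%) the second. The shares were alike in the 15 largest rises and the 15 largest falls, each with 11 promoters found: 1 (9.09%) held the first and 3 (27.3%) the second in either set. SPINK13, ART3, CIDEC, EGFR, KCNJ16, KCNMA1 and PTH1R, all higher at 24 h, held an AP-1 match too. A match in these letters is not evidence of a bound site, and no match says only that the letters are absent from this window.

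The genes with the largest rises were mostly at background before hormone. PNLIP, which encodes the pancreatic triglyceride lipase, lay at 4.67, 4.76 and 4.85 (lowest, median and highest of 8 arrays) at 0 h and at 13.27, 13.39 and 13.72 at 24 h. Its probe was above background on 0 of 8 arrays at 0 h and on 8 of 8 at 24 h, so its rise is a bound: at least 164-fold (means 4.77 and 13.44, limma adjusted p = 9.95e-20). SPINK13, a member of the Kazal-type serine protease inhibitor family, went from 4.89, 5.09 and 5.17 to 12.97, 13.25 and 13.60, at least 142-fold (means 5.05 and 13.23, limma adjusted p = 1.89e-18). Both genes had all 8 hormone arrays far above all 8 others.

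The other leaders included membrane and transport proteins. ART3, of the ADP-ribosyltransferase family, was at least 92.5-fold higher (means 4.78 and 12.61) and CACNA1I, a T-type calcium channel subunit, at least 72.9-fold (5.40 and 12.27). TEDDM1 was at least 42.8-fold higher (5.56 and 11.50) and FAM107A at least 40.2-fold (4.85 and 11.41). ACTL8 (4.98 and 10.96) and TMIGD3 (5.11 and 10.96) were at least 29.5 and 29.4-fold higher. SLC25A18, a mitochondrial glutamate carrier, was at least 24.9-fold higher (5.15 and 10.72), and ABCC8, the sulfonylurea receptor subunit of potassium channels, and the Notch ligand-related DNER at least 23.3-fold each (4.77 and 10.62, 5.03 and 10.62). FAM83A-AS1, an antisense transcript, was at least 30.8-fold higher on its brighter probe (5.25 and 11.03), while its other probe differed by 1.11. Each of these genes was above background on 0 of 8 arrays at 0 h and on all 8 at 24 h, with a limma adjusted p of 2.36e-13 (TEDDM1) or lower. PHACTR3, a regulator of protein phosphatase 1 and actin, was above background on 6 arrays at 0 h and rose 105-fold (6.71 on the log2 scale, SE 0.17, limma adjusted p = 1.26e-13).

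**Figure D1:**
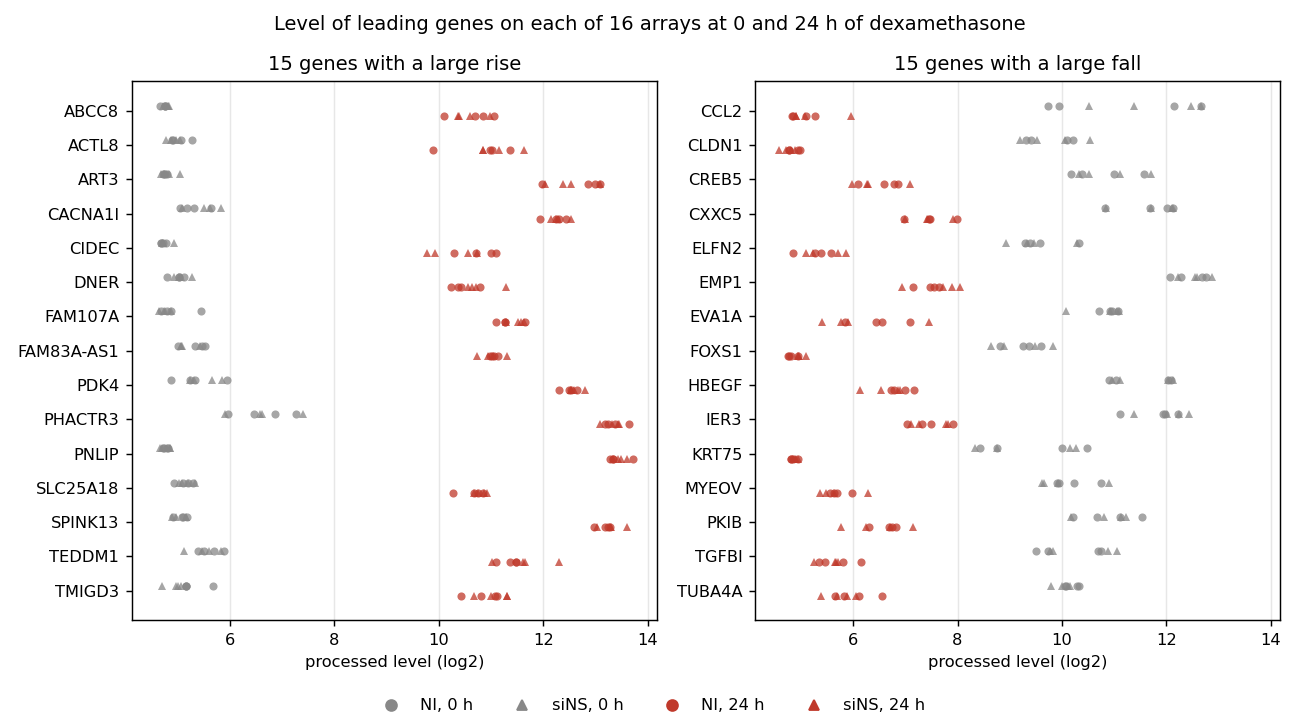
Processed log2 level (x axis) of the 15 genes named for a large rise (left) and the 15 named for a large fall (right), in alphabetical order. Each point is 1 of 16 arrays, grey at 0 h and red at 24 h, circles NI and triangles siNS; in all 30 genes the 8 hormone arrays lie apart from the 8 without hormone. Positions on the x axis are not compared between genes, since each has its own probe.

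Genes long known as glucocorticoid targets rose at 24 h. Of 31 measured, 24 were higher and 3 lower, with a median difference of 1.65 against -0.01 over all genes. TSC22D3, whose leucine zipper protein GILZ dampens inflammation, lay at 7.15, 7.76 and 7.96 without hormone and at 12.001, 12.15 and 12.44 with it, a 21.9-fold rise (4.45, SE 0.11, limma adjusted p = 8.5e-14; its 3 probes gave 3.20 to 4.99). FKBP5, a chaperone partner that dampens the receptor, went from 10.27, 10.65 and 11 to 13.00, 13.37 and 13.55, a 6.29-fold rise (2.65, SE 0.08, limma adjusted p = 5.39e-13). The arrays of the 2 times did not overlap for either gene.

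TIPARP, a mono-ADP-ribosyltransferase, rose by 4.83 (SE 0.11) and CRISPLD2, a secreted protein, by 3.46 (0.17). CDKN1C, a cyclin-dependent kinase inhibitor, rose by 2.32 (SE 0.13), the kinase SGK1 by 1.91 (0.10), the transcription factor KLF9 by 1.54 (0.10) and the MAP kinase phosphatase DUSP1 by 1.25 (0.09). The transcription factors KLF15 and ZBTB16 were not above background on any array at 0 h and were at least 11.5 and 4.33-fold higher (means 5.04 and 9.60, 5.49 and 8.20). The clock gene PER1 was likewise at background at 0 h and at least 1.12-fold higher (means 5.44 and 6.24), with overlapping arrays. Every limma adjusted p here was 0.000432 (PER1) or lower. The 3 members that fell, named here after their values were seen, were GADD45B, a stress-response gene (-1.66, SE 0.12), ADRA1B, an adrenergic receptor (-0.58, 0.13), and KLF6 (-0.30, 0.11), with a limma adjusted p of at most 0.0327, that of KLF6, and overlapping arrays for the last 2. The call of KLF6 was lost in 18 alternative settings, and its sign turned within slide 4 (0.55).

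The receptor's own machinery mostly fell. Of 14 corticosteroid receptor and chaperone genes 11 were lower and 1, FKBP5, higher, with a median of -0.53. NR3C1 was read by a probe of the human receptor gene, in cells that also carry the rat receptor. It lay at 6.60, 6.93 and 7.16 at 0 h and at 5.47, 6.21 and 6.59 at 24 h, a difference of -0.74 (SE 0.12, limma adjusted p = 0.000104). NR3C2, the mineralocorticoid receptor, fell by 1.13 on the log2 scale (SE 0.08), the drug efflux pump ABCB1, which exports steroids, by 1.41 (0.15) and the co-chaperone DNAJB1 by 0.85 (0.10), each with a limma adjusted p of at most 3.76e-06, that of DNAJB1. Among 15 receptor coregulators 10 were higher and 3 lower (median 0.32), or 7 and 3 with every array scaled to its median. CALCOCO1, a coiled-coil coactivator, rose by 1.88 (SE 0.16), NCOA7 by 1.17 (0.12) and the steroid receptor coactivator NCOA1 by 0.92 (0.07). PPARGC1A, a coactivator of mitochondrial and fasting genes, was at background at 0 h and at least 2.42-fold higher (means 5.57 and 7.36). TGFB1I1, the gene of Hic-5, was among the 3 that fell: it lay at 9.22, 9.48 and 9.84 at 0 h and at 8.23, 8.39 and 8.77 at 24 h, with no overlap (-1.06, SE 0.08, limma adjusted p = 2.75e-08).

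**Figure D2:**
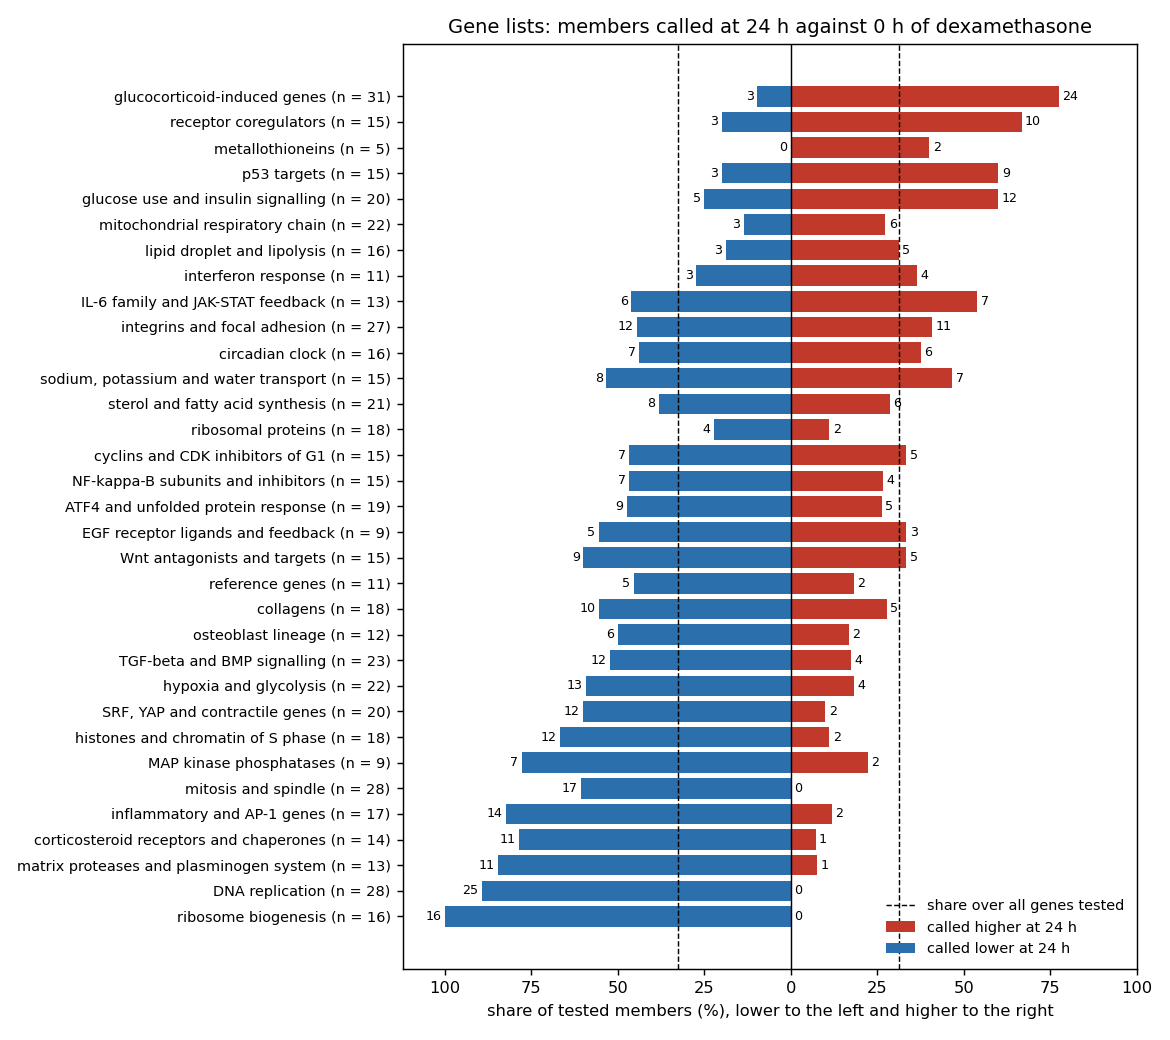
Share of the tested members of 33 gene lists (y axis, number tested in parentheses) called lower (blue, to the left) or higher (red, to the right) at 24 h, in percent on the x axis, with the count at each bar's end. Dashed lines mark the share over all 10923 genes (32.6% lower, 31.3% higher). Ribosome biogenesis (16 of 16 lower) and DNA replication (25 of 28 lower) stand at one end and glucocorticoid-induced genes (24 of 31 higher) at the other.

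Inflammatory and AP-1 genes fell. Of 17 measured, 14 were lower and 2 higher, with a median of -1.36. CCL2, a chemokine that attracts monocytes, lay at 9.73, 11.76 and 12.67 at 0 h and at 4.83, 4.99 and 5.96 at 24 h. It was above background on all 8 arrays without hormone and on 1 with it, and fell (fitted difference -6.33, SE 0.37, limma adjusted p = 1.35e-09), a size that depends on the background level reached at 24 h. The 0 h arrays were widely spread for this gene (SD 1.23), yet none came near the 24 h arrays. IER3, an immediate-early gene, went from 11.12, 11.99 and 12.43 to 7.03, 7.41 and 7.91 (-4.45, SE 0.17, limma adjusted p = 1.3e-11), and the chemokine CCL20 fell by 3.52 on the log2 scale (0.22, limma adjusted p = 3.98e-09). The neutrophil chemokine CXCL8 went from 7.07, 9.61 and 10.40 to 6.20, 6.60 and 6.89 (-2.74, SE 0.32, limma adjusted p = 3.36e-06), with a second probe at -4.61. FOSL1, an AP-1 subunit, was not above background on any array at 24 h and was at least 3.13-fold lower (means 7.73 and 5.44, limma adjusted p = 2.95e-09). Of the 2 members that rose, named here after their values were seen, FOS, another AP-1 subunit, differed by 1.11 (SE 0.23) and CCN2, a matricellular protein, by 0.65. IL6 was not tested, since its probes did not pass the filter on dim probes.

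In the NF-kappa-B pathway the inhibitor NFKBIA rose while several subunits fell. Of 15 subunits and inhibitors 7 were lower and 4 higher (median -0.20). NFKBIA (I-kappa-B alpha) rose by 2.15 (SE 0.09), from 10.91 to 11.45 over the 0 h arrays to 13.08 to 13.51 over the 24 h arrays. The subunits NFKB1 (-1.48, SE 0.09) and NFKB2 (-1.08, 0.10) and the inhibitor NFKBIE (-2.13, 0.12) fell, and RELB, a subunit of the noncanonical pathway, was at background on all 24 h arrays and at least 5.14-fold lower (means 8.45 and 5.15). By limma, NFKB2 had the highest adjusted p of these genes, 3.77e-07.

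In the IL-6 family the ligands LIF and IL11 fell, and of the 3 measured receptor chains LIFR and IL6ST rose and OSMR fell. All 13 measured members were called, 7 higher and 6 lower. LIF, a cytokine of the family, lay at 8.13, 8.55 and 9.57 at 0 h and at 5.42, 5.86 and 6.17 at 24 h, above background on 2 of 8 arrays (-2.87, SE 0.16), and IL11 was at background on all 24 h arrays and at least 4.00-fold lower (means 8.08 and 5.21). The receptor chain LIFR rose by 1.81 (SE 0.11) and the kinase JAK1, which binds these receptors, by 2.01 (0.09). The shared receptor chain IL6ST (1.44, SE 0.08) and the transcription factor STAT3 (1.25, 0.08) also rose, and the oncostatin M receptor OSMR fell (-0.44, 0.09, limma adjusted p = 0.000461), all 3 named after their values were seen. BCL3, an NF-kappa-B cofactor, fell by 1.81 on the log2 scale (0.08). Adjusted p values from limma reached 8.11e-09 at most, for IL11.

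The EGF receptor rose while both of its measured ligands fell. HBEGF, a membrane-bound EGF family ligand, went from 10.90, 11.58 and 12.13 to 6.14, 6.82 and 7.16, a 27.4-fold fall (-4.78, SE 0.18, limma adjusted p = 9.2e-12). EGFR, its receptor, was above background on 2 arrays at 0 h and on all 8 at 24 h and rose by a fitted 2.84 (SE 0.10, limma adjusted p = 3.35e-12), and its other probe gave 1.59. TGFA, another EGFR ligand, named after its values were seen, fell by 0.71 on the log2 scale (0.15, limma adjusted p = 0.000946), with overlapping arrays. ERRFI1, a feedback inhibitor of EGFR, rose by 1.00 (SE 0.13), and SPRY2, an inhibitor of the Ras pathway, by 0.73 (0.16), with overlapping arrays for SPRY2. In all, 5 of the 9 measured genes of this list were lower and 3 higher. Of 9 MAP kinase phosphatases, which switch off the kinases downstream, 7 were lower and 2 higher: DUSP5 fell by 2.53 on the log2 scale (SE 0.16), DUSP14 by 1.60 (0.07), DUSP2 by 1.36 (0.16) and DUSP16 by 1.11 (0.13), beside the rise of DUSP1. The highest limma adjusted p among them was 0.000938, for SPRY2.

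Genes that limit glucose use were among the strong rises. Of 20 genes of glucose use and insulin signalling 12 were higher and 5 lower, with a median of 0.85. PDK4, which blocks entry of pyruvate into the mitochondrial fuel cycle, lay at 4.88, 5.32 and 5.94 at 0 h, at background on every array, and at 12.30, 12.53 and 12.80 at 24 h, at least 88.8-fold higher (means 5.43 and 12.55, limma adjusted p = 3.55e-15). TXNIP, an arrestin-like protein that limits glucose uptake, went from 6.35, 7.14 and 7.56 to 11.45, 11.84 and 12.23, a 26.9-fold rise (4.75, SE 0.14, limma adjusted p = 7.2e-13). GHR, the growth hormone receptor, rose 24.0-fold (4.59, SE 0.11) and FOXO1, a transcription factor of fasting, by 2.66 (0.10). IGF1, the growth factor downstream of growth hormone, was at background at 0 h and at least 2.66-fold higher (means 4.66 and 7.49). Every limma adjusted p here was 3.27e-10 (IGF1) or lower.

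Of 16 lipid droplet and lipolysis genes 5 were higher and 3 lower. CIDEC, which lets lipid droplets fuse and grow, was at background on all 0 h arrays (4.68, 4.72 and 4.93) and lay at 9.78, 10.64 and 11.09 at 24 h, at least 21.6-fold higher (means 4.74 and 10.51, limma adjusted p = 2.14e-13), and a dimmer probe of it gave 1.63. The droplet coat protein PLIN2 (1.53, SE 0.07), the triglyceride lipase PNPLA2 (1.49, 0.11) and the phosphatidate phosphatase LPIN1 (1.44, 0.10) rose, and the fatty acid binding protein FABP5 fell by 1.13 on the log2 scale (0.12), each with a limma adjusted p of at most 8.09e-07. With every array scaled to its median the counts were 4 higher and 5 lower, so the list as a whole had no settled direction. Of 8 adipocyte markers ADIPOQ, FABP4 and PLIN1 did not pass the filter on dim probes, and 5 did: CIDEC was higher, PPARG (-0.34, SE 0.08, limma adjusted p = 0.00225) and LPL (-0.39, 0.11, limma adjusted p = 0.00514), both above background on all 16 arrays, were lower, and LEP and CEBPA were not called. Sterol and fatty acid synthesis genes were mixed, 6 of 21 higher and 8 lower: NSDHL, a cholesterol synthesis enzyme, rose by 2.21 (SE 0.08, limma adjusted p = 5.19e-12), and SREBF1, the transcription factor of fatty acid synthesis, fell by 0.88 on the log2 scale (0.08, limma adjusted p = 2.2e-07). With median scaling these counts were 3 and 8.

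**Figure D3:**
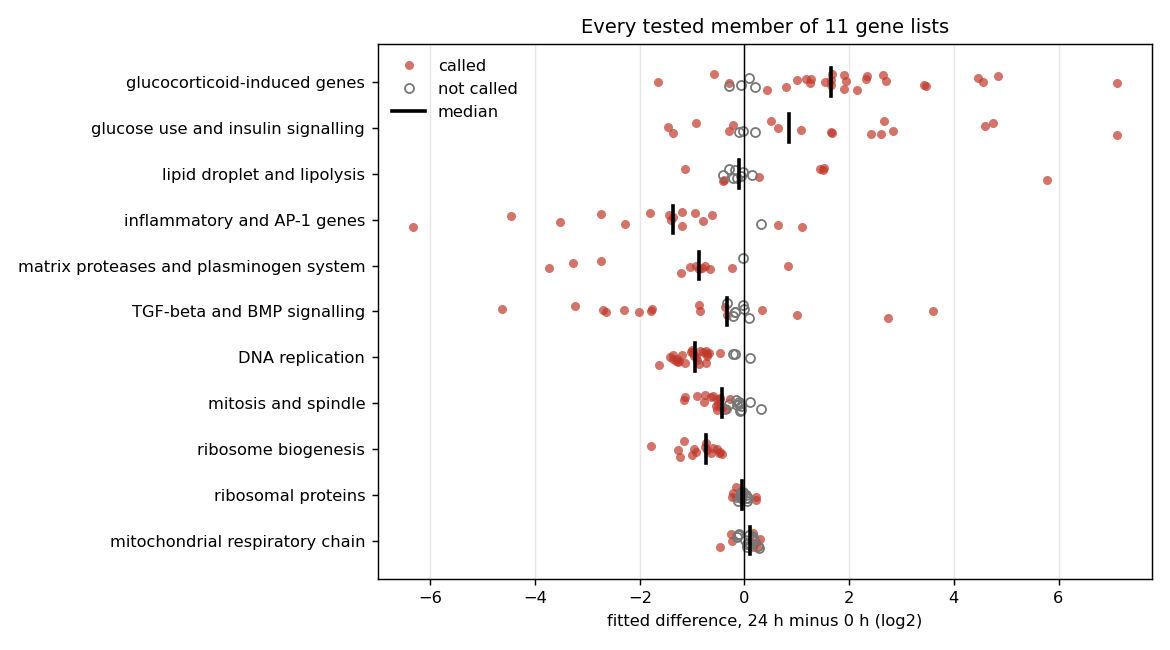
Fitted difference (24 h minus 0 h, log2, x axis) of every tested member of 11 gene lists, filled red where called and open grey where not, with a black bar at each list's median. The medians run from 1.65 for glucocorticoid-induced genes to -1.36 for inflammatory and AP-1 genes. The growth lists (DNA replication, mitosis, ribosome biogenesis) have many falls (medians -0.94, -0.44 and -0.74), and ribosomal proteins stay near 0 (median -0.05). For members at background at one time the point is the fitted value, not a bound.

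Genes of the cell cycle and of ribosome production mostly fell. At least 2-fold lower were 11 of 28 DNA replication, 2 of 28 mitotic and 5 of 16 ribosome biogenesis genes, against 821 of 10923 genes in all. Of 28 DNA replication genes 25 were lower and 0 higher (median -0.94). MCM2, a subunit of the replicative helicase, lay at 9.93, 10.15 and 10.49 at 0 h and at 7.68, 8.54 and 9.24 at 24 h, with no overlap (-1.64, SE 0.17, limma adjusted p = 1.04e-06). The replication factors MCM10 (-1.42, SE 0.13), GINS2 (-1.37, 0.14), CDT1 (-1.36, 0.19) and RFC4 (-1.31, 0.14) fell with it, with a limma adjusted p of at most 2.39e-05 and overlapping arrays for CDT1. Of 28 mitotic genes 17 were lower and 0 higher (median -0.44). The proliferation marker MKI67 went from 6.84, 6.97 and 7.36 to 5.48, 5.91 and 6.31 (-1.16, SE 0.11, limma adjusted p = 2.9e-07), the mitotic kinase AURKB fell by 1.13 on the log2 scale (0.17, limma adjusted p = 4.17e-05) and the spindle checkpoint gene MAD2L1 by 0.91 (0.11, limma adjusted p = 4.11e-06). Without the arrays of replicate number 3, 10 mitotic genes were lower and 1 higher. With NI arrays only 8 of the 28 were lower (median -0.34), and with siNS arrays only 19 (median -0.53), with 0 higher in either. Over all 10923 genes these fits called 2588 and 2729 lower.

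The regulators of entry into the cycle moved both ways, 7 of 15 lower and 5 higher. CCND1 (cyclin D1) went from 11.87, 12.04 and 12.26 to 10.89, 11.04 and 11.31 (-0.996, SE 0.06, limma adjusted p = 3.92e-09). Its partner kinase CDK6 fell by 1.21 on the log2 scale (SE 0.10) and the growth-promoting transcription factor MYC by 1.34 (0.14), while the inhibitor CDKN1C rose as given above. All 16 measured ribosome biogenesis genes were lower and 0 higher (median -0.74), led by BOP1, a factor of large subunit assembly (-1.78, SE 0.07), the RNA polymerase I subunit POLR1B (-1.27, 0.14), RRP12 (-1.22, 0.07) and RRS1 (-1.16, 0.10). By limma, POLR1B had the highest adjusted p of these genes, 1.86e-06. The proteins of the ribosome itself did not follow at the RNA level: of 18 measured 2 were higher and 4 lower, with a median of -0.05. Chromatin genes of the S phase were lower in 12 of 18 and higher in 2 (median -0.64), HMGA1, an architectural protein, by 2.08 on the log2 scale (SE 0.10, limma adjusted p = 2.07e-10) and UHRF1, which maintains DNA methylation, by 1.34 (0.14, limma adjusted p = 1.33e-06).

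Stress pathway genes were mixed. Of 15 p53 targets 9 were higher and 3 lower (median 0.38), or 5 and 4 with median scaling. SESN1, a stress-response inhibitor of the growth kinase mTORC1 that FOXO factors also induce, lay at 6.05, 6.70 and 7.12 at 0 h and at 10.56, 10.78 and 11.06 at 24 h (4.09, SE 0.09, limma adjusted p = 4.72e-14), and TP53INP1, an autophagy regulator, rose by 1.64 (0.14, limma adjusted p = 9.56e-08). The ATF4 and unfolded protein response list held 19 measured genes, 9 of them lower and 5 higher (2 with median scaling). PSAT1, an enzyme of serine synthesis, fell by 2.17 on the log2 scale (SE 0.18), asparagine synthetase ASNS by 1.52 (0.15) and the stress transcription factor ATF3 by 1.43 (0.15), with a limma adjusted p of at most 8.9e-07, that of ATF3. Among 22 hypoxia and glycolysis genes 13 were lower and 4 higher: ENO2, a glycolytic enzyme, fell by 2.51 (SE 0.12) and the angiogenic factor VEGFA by 1.03 (0.09), while the stress gene NDRG1 rose by 1.70 (0.07) and the mitophagy receptor BNIP3 by 1.47 (0.14), with a limma adjusted p of at most 3.04e-07. Of 11 interferon response genes 4 were higher and 3 lower. IFI44L was at background at 0 h and at least 4.64-fold higher (means 4.79 and 8.30, limma adjusted p = 9.63e-14; its other probe gave 0.42), and IRF1, a transcription factor of the pathway, fell by 1.46 on the log2 scale (SE 0.10, limma adjusted p = 6.75e-09).

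The matrix and bone lists held more falls than rises. Of 18 collagens 10 were lower and 5 higher (median -0.36; 10 and 3 with median scaling). COL1A1, the main collagen of bone, lay at 12.53, 12.69 and 12.90 at 0 h and at 11.19, 11.45 and 11.75 at 24 h, a 2.36-fold fall (-1.24, SE 0.08, limma adjusted p = 5.09e-09), and COL3A1 fell by 1.12 on the log2 scale (0.20, limma adjusted p = 0.000166). COL6A1, of the microfibrillar collagen VI, went the other way, from 8.60, 9.08 and 9.57 to 11.88, 12.35 and 12.66, a 9.57-fold rise (3.26, SE 0.11, limma adjusted p = 4.85e-12). Of 12 osteoblast lineage genes 6 were lower and 2 higher (median -0.19). The counts were 4 and 3 with NI arrays only and 5 and 3 with siNS arrays only, so this list's excess of falls is not settled. TNFRSF11B (osteoprotegerin, which blocks bone resorption) fell by 2.07 (SE 0.16) and the bone morphogenetic protein BMP6 by 3.00 (0.20), and BMP4 was at background at 24 h and at least 2.38-fold lower (means 7.33 and 5.57). The homeobox gene MSX2 rose by 2.77 (SE 0.14), and PTH1R, the parathyroid hormone receptor, was at background at 0 h and at least 6.89-fold higher (means 5.04 and 8.87; a dimmer probe gave 1.01). The limma adjusted p of these bone genes was at most 4.23e-08.

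The plasminogen system and matrix proteases fell in 11 of 13 members, with 1 higher (median -0.88, or -0.82 with members at background taken at their bound). PLAU (urokinase) went from 9.18, 9.90 and 10.37 to 5.73, 6.08 and 6.64 (-3.73, SE 0.16, limma adjusted p = 6.55e-11), and tissue plasminogen activator PLAT fell by 1.05 on the log2 scale (0.13, limma adjusted p = 4.36e-06). The gelatinase MMP9 was at background on all 24 h arrays and at least 3.71-fold lower (means 7.97 and 5.23, limma adjusted p = 5.51e-11), and MMP2 fell by 1.21 (0.11, limma adjusted p = 2.95e-07). TIMP3, an inhibitor of these proteases, fell too, by 3.27 on the log2 scale (0.17, limma adjusted p = 3.59e-10).

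In TGF-beta and BMP signalling 12 of 23 genes were lower and 4 higher (median -0.33). TGFBI, a matrix protein induced by TGF-beta, lay at 9.50, 10.25 and 11.05 at 0 h and at 5.25, 5.66 and 6.15 at 24 h, above background on 1 array there (-4.64, SE 0.19, limma adjusted p = 4.07e-11). The ligand TGFB2 fell by 3.25 on the log2 scale (SE 0.19) and the feedback inhibitor PMEPA1 by 2.70 (0.13). The co-receptor TGFBR3 (betaglycan) rose by 3.60 (SE 0.13) and HEY1, a Notch and BMP target, by 2.74 (0.11), with a limma adjusted p of at most 1.67e-09 in this group, that of TGFB2. Contractile and SRF or YAP target genes were lower in 12 of 20 and higher in 2 (median -0.59, or -0.45 with bounds): calponin CNN1 (-3.66, SE 0.17), the receptor kinase AXL (-2.26, 0.10) and tropomyosin TPM1 (-1.14, 0.09) fell, with a limma adjusted p of at most 6.02e-08. Of 27 integrin and focal adhesion genes 12 were lower and 11 higher, both not far above the shares over all genes, and 12 and 5 with median scaling. With NI arrays only the counts were 7 and 7, so this list has no settled direction. ITGA3, a laminin-binding integrin subunit, fell by 1.60 on the log2 scale (SE 0.09) and the adaptor TNS3 by 1.62 (0.10), while ITGA1, a collagen-binding subunit, was at background at 0 h and at least 3.01-fold higher (means 5.21 and 7.67), with a limma adjusted p of at most 3.26e-09. LPXN (leupaxin), a relative of Hic-5, fell by 1.26 (0.21, limma adjusted p = 9.04e-05). Part of that size comes from replicate number 3, which at 0 h lay at 9.19 in NI and 9.90 in siNS. The other 0 h arrays lay at 7.53 to 8.17 and the 24 h arrays at 6.65 to 7.30.

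Several genes named with a fitted difference were above background on few arrays of their dimmer time. It was 1 of 8 arrays at 24 h for TIMP3 and TNFRSF11B, 2 for BMP6, CNN1, MYEOV and ABCB1, 3 for TUBA4A, ENO2 and MKI67, and 4 for EVA1A, PLAU and POLR1B. At 0 h it was 1 of 8 for NKD1, MSX2 and KCNA5 and 2 for HEY1.

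Other leading falls touched junctions, the cytoskeleton and transcription. EMP1, a membrane protein of the peripheral myelin protein family, went from 12.06, 12.57 and 12.88 to 6.94, 7.59 and 8.04, a 31.0-fold fall (-4.95, SE 0.15, limma adjusted p = 9.72e-13). The tight junction protein CLDN1, the keratin KRT75, the forkhead factor FOXS1 and ELFN2 were at background on all 24 h arrays and at least 13.1, 9.93, 8.85 and 11.2-fold lower (means 9.79 and 4.81, 9.40 and 4.88, 9.23 and 4.91, 9.57 and 5.37), and a dimmer probe of ELFN2 gave -0.82. EVA1A, a regulator of autophagy (-4.54, SE 0.18), MYEOV (-4.41, 0.13), the transcription factor CREB5 (-4.36, 0.15, with its other probe at -2.63), the protein kinase A inhibitor PKIB (-4.31, 0.21), CXXC5 (-4.22, 0.15) and the alpha-tubulin TUBA4A (-4.20, 0.08) fell too. Adjusted p values from limma reached 4.45e-10 at most, for KRT75.

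Ion transport, metal and clock genes held further members that moved strongly. All 15 sodium, potassium and water transport genes were called, 7 higher and 8 lower. SCNN1A, a subunit of the epithelial sodium channel, rose by 3.42 (SE 0.15), the potassium channels KCNA5 by 3.28 (0.16) and KCNMA1 by 2.49 (0.15), and KCNJ16 was at background at 0 h and at least 5.38-fold higher (means 5.21 and 8.51). Of 5 metallothioneins, which bind zinc and copper, MT1X (1.71, SE 0.09) and MT1G (1.35, 0.14) rose and 0 fell. These genes are near copies, so their probes may share signal. Of 16 clock genes 6 were higher and 7 lower: NFIL3 rose by 1.44 (SE 0.09) and CRY2 by 1.30 (0.13), PER3 fell by 1.27 on the log2 scale (0.13) and the repressor BHLHE40 by 1.49 (0.17). NKD1, an inhibitor of Wnt signalling, rose by 5.38 (SE 0.12), in a list of 15 Wnt genes with 5 higher and 9 lower (3 and 9 with median scaling). WNT5B, a Wnt ligand, was at background at 24 h and at least 2.51-fold lower (means 7.41 and 5.59). The highest limma adjusted p among them was 2.21e-06, for BHLHE40.

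Housekeeping lists had medians near 0. Of 22 respiratory chain genes 6 were higher and 3 lower with a median of 0.11, and 0 and 3 with median scaling, so no direction can be given. Of 11 reference genes 2 were higher and 5 lower (median -0.10). PPIA, used as a reference gene in many assays, differed by -0.75 (SE 0.12, limma adjusted p = 5.86e-05), HPRT1 by -0.39 (0.07, limma adjusted p = 0.000258) and B2M by 0.49 (0.07, limma adjusted p = 4.51e-05).

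Levels at 2 and 4 h in the control cells show when these changes were reached. The comparisons of 24 h with 0 h and with 4 h share the 24 h arrays, so the values are set side by side. Against 4 h, 6741 of 11473 genes were called (58.8%), 3386 higher (29.5%) and 3355 lower (29.2%), or 1977 higher and 3498 lower with median scaling. Some targets were complete early. SGK1 had means of 10.68, 12.43, 12.46 and 12.59 at 0, 2, 4 and 24 h, and 24 h differed from 4 h by 0.13 (SE 0.08, limma adjusted p = 0.183). TXNIP had means of 7.08, 11.88, 12.08 and 11.83 and TIPARP of 8.02, 12.59, 12.74 and 12.85, and neither was called between 4 and 24 h (limma adjusted p = 0.207 and 0.348). FKBP5 was still rising, with means of 10.68, 11.21, 12.06 and 13.34 (1.28 from 4 to 24 h, limma adjusted p = 1.01e-13). KCNA5 was past its highest mean, with 5.84, 10.12, 10.40 and 9.12 (-1.28, limma adjusted p = 7.17e-09).

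A second set moved mainly after 4 h. TEDDM1 had means of 5.56, 5.38, 5.65 and 11.50 at 0, 2, 4 and 24 h, ABCA8, a lipid transporter, of 5.11, 5.25, 5.43 and 9.90, CLPSL1 of 4.89, 4.93, 5.15 and 9.88 and the monooxygenase FMO5 of 5.19, 5.03, 6.06 and 10.39. PPEF1, a protein phosphatase, went from 5.13 at 4 h to 9.51. IFI44L and ITGA1 had 4 h means of 4.92 and 5.20, close to their 0 h means. Among the falls, ELFN2 (9.44 at 4 h and 5.37 at 24 h), the neuronal adhesion protein CNTNAP2 (9.20 and 5.34), the prostaglandin transporter SLCO2A1 (10.40 and 6.50), KRT75 (8.67 and 4.88) and PKIB (10.32 and 6.55) were late. ARC, an immediate-early gene of neurons, rose before it fell, with means of 8.18, 10.50, 9.96 and 5.78. The limma adjusted p between 4 and 24 h of all these genes was at most 2.36e-15, that of SLCO2A1.

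The DNA replication and mitosis lists fell mainly after 4 h. Between 4 and 24 h 27 of 29 DNA replication genes were lower and 0 higher (median -0.92), against a difference of -0.94 from 0 to 24 h. MCM2 had means of 10.17, 10.12, 10.03 and 8.53. Of 28 mitotic genes 19 were lower and 0 higher (median -0.48). Ribosome biogenesis genes fell both before and after: 15 of 17 were lower between 4 and 24 h (median -0.50, against -0.74 from 0 h), BOP1 had means of 12.47, 12.32, 12.29 and 10.69, and RRS1 of 10.27, 9.60, 9.48 and 9.11. Inflammatory genes were spread over the course: 9 of 18 were lower and 3 higher between 4 and 24 h (median -0.29). CCL2 had means of 11.44, 8.79, 7.01 and 5.11, while CXCL8 (9.33, 7.60, 6.69 and 6.58) and IL11 (8.08, 5.62, 5.45 and 5.21) were not called after 4 h (limma adjusted p = 0.769 and 0.362). The second probe of CXCL8 fell further from 0 to 24 h, as given above, so its course after 4 h is known for the tested probe only. IL11 was at background on all 24 h arrays, with a 4 h mean nearly as low, so its level could hardly have shown a further fall. The medians cover all tested members, those at background included.

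**Figure D4:**
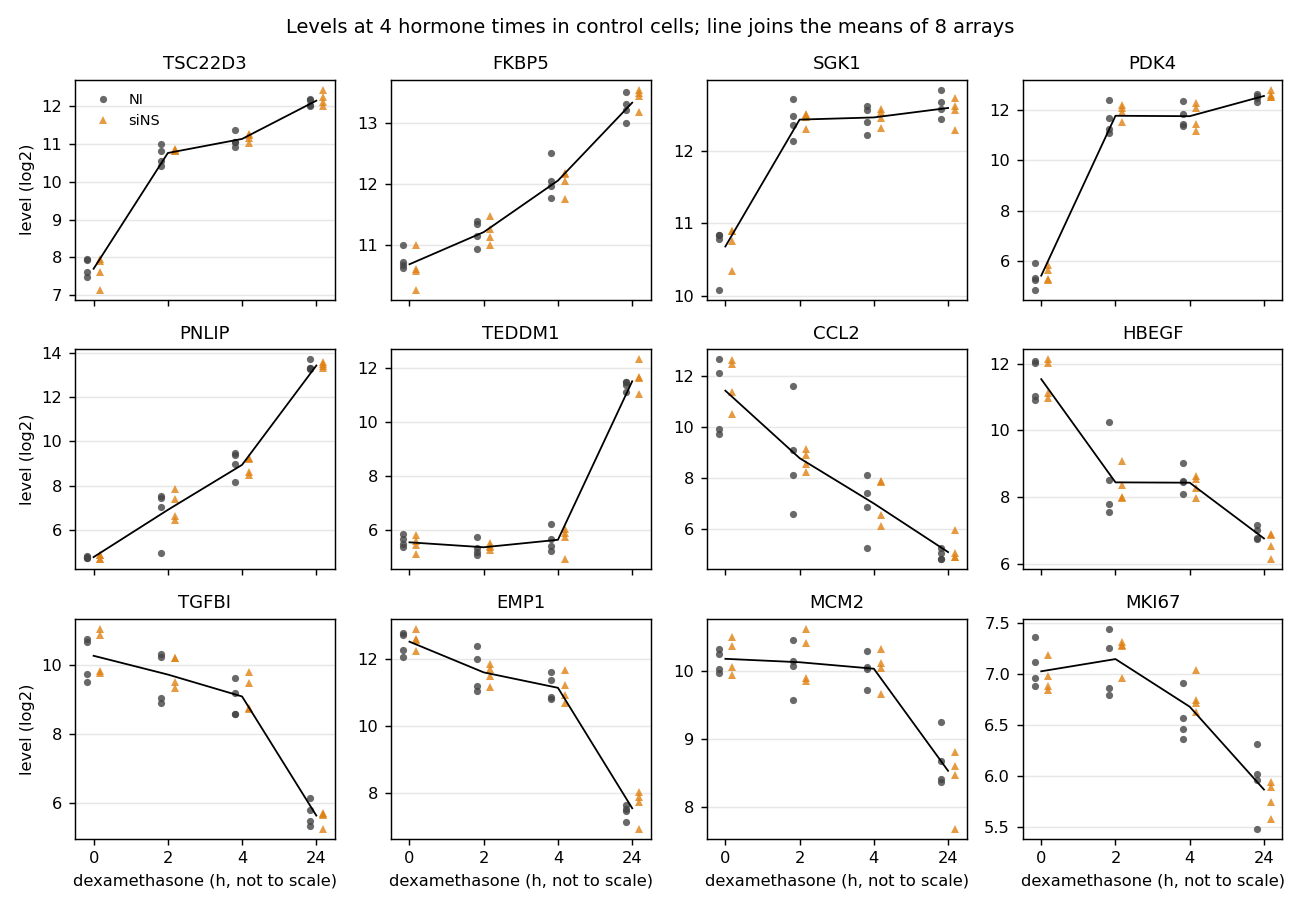
Processed log2 level (y axis, a scale of its own for each gene) of 12 genes in control cells at 0, 2, 4 and 24 h of dexamethasone (x axis, not to scale). Circles are NI and triangles siNS arrays, and the line joins the means of 8 arrays. SGK1 and PDK4 are near their 24 h level by 2 h, FKBP5 and PNLIP rise throughout, and TEDDM1, MCM2 and EMP1 move mostly after 4 h.

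The response did not differ detectably between the 2 control states. For the difference of the 24 h response between siNS and NI, limma gave 0 calls over 10923 genes (0%), and 305 genes (2.79%) had an unadjusted p below 0.05. Over all genes the responses in NI and siNS, which share no array, correlated at 0.975, a description across genes that are not independent replicates. Of the 6975 called genes 6970 (99.9%) had the same sign in both. These genes were called by the pooled fit of the same arrays, so a high share was built in and does not test likeness. PNLIP reached a mean of 13.42 in NI and 13.46 in siNS cells. TSC22D3 differed by 4.36 and 4.54, CCL2 by -6.12 and -6.55 and MCM2 by -1.47 and -1.82. A count of 0 does not show that the states act alike.

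Cells with the siRNA against Hic-5 gave a further set of 8 arrays at 0 and 24 h that the control comparison did not use. Their response correlated with that of the control cells at 0.871 across genes, and 6228 of the 6975 genes called in control cells (89.3%) had the same sign. The response itself differed from that of the control cells for 930 of 11316 genes (8.22%), 475 with a more positive (4.2%) and 455 with a more negative difference (4.02%), and for 487 genes (290 and 197) with every array scaled to its median. Among genes named above, the response of PNLIP (24 h mean 13.09 in siHic5_2 cells), CCL2 (response -6.22) and TXNIP (5.46) was not called as different (limma adjusted p = 0.144, 0.949 and 0.166). In control cells PNLIP was at background at 0 h and CCL2 on most arrays at 24 h, so for these genes the missing call does not show likeness. In siHic5_2 cells CCL2 lay at 11.78 to 13.80 at 0 h and at 5.95 to 6.88 at 24 h. In control cells it lay at 9.73 to 12.67 and at 4.83 to 5.96. PHACTR3 responded by 3.39 instead of 6.71 (difference -3.32, SE 0.44, limma adjusted p = 8.93e-05) and SESN1 by 1.70 instead of 4.09 (-2.38, SE 0.19, limma adjusted p = 2.52e-07). TSC22D3 responded by 2.88 (difference -1.57, SE 0.20, limma adjusted p = 6.76e-05) and FKBP5 by 1.39 (-1.27, SE 0.21, limma adjusted p = 0.000777). In siHic5_2 cells without hormone, PHACTR3 had a mean of 8.83 against 6.63 in the control cells, SESN1 of 8.83 against 6.72, TSC22D3 of 9.32 against 7.70 and FKBP5 of 11.01 against 10.68.

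CIDEC and TEDDM1 rose far less there. CIDEC reached 10.78 ± 0.35 in NI, 10.25 ± 0.47 in siNS and 6.40 ± 0.44 in siHic5_2 cells at 24 h (SD, n = 4 each; limma adjusted p = 1.79e-08), and TEDDM1 11.35 ± 0.18, 11.65 ± 0.53 and 6.48 ± 1.21 (limma adjusted p = 5.64e-07). Both were at background on all arrays of every state at 0 h, so no size is given for these differences in response. RP1L1 went the other way: at background on all control arrays at 24 h and on all siHic5_2 arrays at 0 h, it reached 9.18 ± 1.64 in siHic5_2 cells at 24 h (SD, n = 4; limma adjusted p = 0.000253). ARC fell from 8.29 ± 0.49 to 5.94 ± 0.11 in NI and from 8.07 ± 0.51 to 5.63 ± 0.33 in siNS cells, and lay at 7.26 ± 0.16 and 8.63 ± 1.37 in siHic5_2 cells (SD, n = 4 each; difference in response 3.77, SE 0.52, limma adjusted p = 0.000128). At 24 h ARC was above background on 2 of 4 NI and 1 of 4 siNS arrays, so that difference depends in part on the background level. SLCO2A1 fell by 3.69 on the log2 scale in control cells and differed by 0.07 in siHic5_2 cells (difference 3.76, limma adjusted p = 4.21e-06). DUSP1 differed by 1.25 and by 0.21 (difference -1.04, limma adjusted p = 0.000335). Its level without hormone was already higher in siHic5_2 cells, 11.80 to 12.51 against 10.88 to 11.72 in control cells. At 24 h the levels overlapped, 12.12 to 12.77 in siHic5_2 and 12.31 to 12.63 in control cells. Without replicate number 2, 3 or 4 the count of 930 was 496, 599 or 358.

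**Figure D5:**
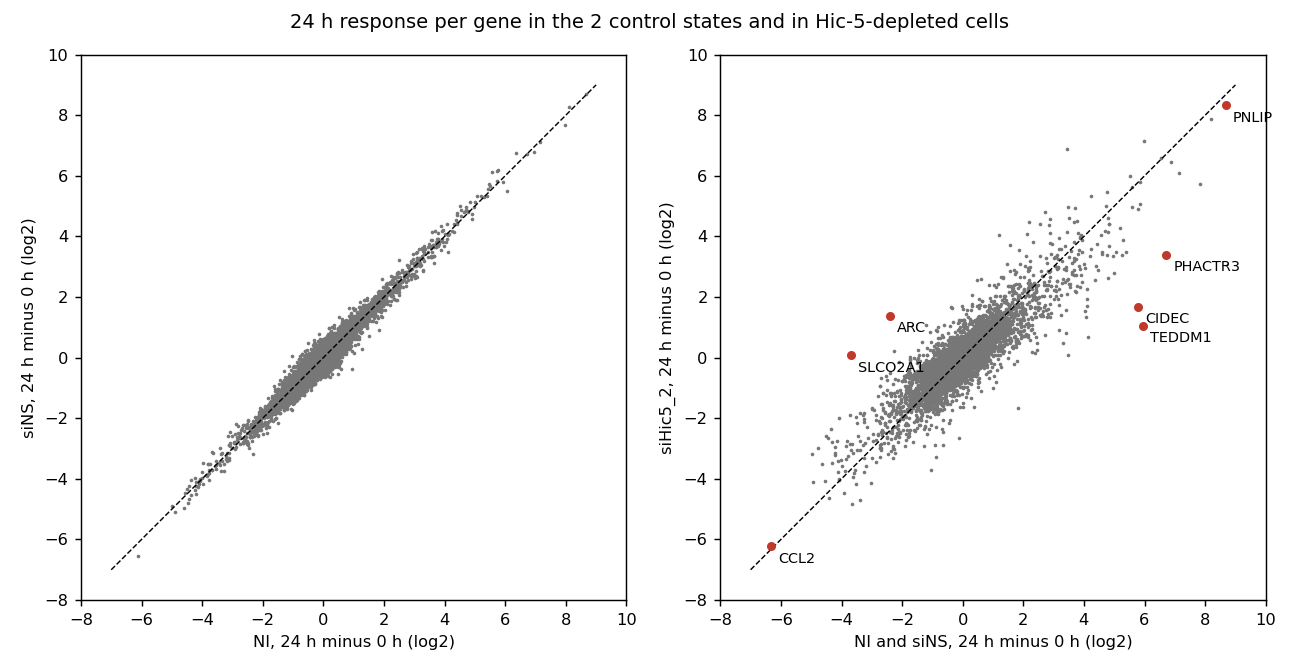
Difference per gene (24 h minus 0 h, log2) in siNS against NI cells (left) and in siHic5_2 against the pooled control cells (right), 1 point per gene for 10923 genes, with the line of equality dashed. The left cloud is tight (correlation 0.975 across genes), and the right one is wider (0.871), with CIDEC, TEDDM1 and PHACTR3 below the line and ARC and SLCO2A1 above it.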

How the data were processed

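RNA of the cultures was measured on single-colour Illumina bead arrays with 47323 probes. The deposited tables hold raw intensity and a detection p-value per probe and array, per the file headers, and the deposited processed table holds log2 values on which the 48 arrays have near-equal medians (5.422 to 5.425). The submitters' processing notes name R 2.15.3 and limma 3.14.4, and how they normalized the arrays is not stated in the labels or headers. Those log2 values lay within 0.263 of values made from the intensities with neqc (background correction, quantile normalization, offset 16), which served as an alternative. The deposited detection p-values were not used: 0 intensity columns matched those under their own name and 32 matched those of another array (tolerance 0.002). They were recomputed from 770 negative-control probes, and probes with a p under 0.01 on 4 or more of the compared arrays were kept. Of 18284 kept probes 14387 had 1 gene symbol in the platform annotation, and the probe with the highest mean stood for each of 10923 genes. Kept probes disagreed in sign for 471 of 2807 genes with several.

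Differences were fitted with limma 3.58.1 in R 4.3.3 on the 16 arrays, with transfection state and replicate number as blocks and Benjamini-Hochberg adjustment over all genes tested. The fit was tested on simulated data. No label says that replicates were separate cultures. The p-values therefore reflect only how far these arrays spread, which may be technical. Same-numbered arrays of one state at 0 and 24 h deviated together from their group means (correlations 0.275 to 0.619 in NI and 0.261 to 0.707 in siNS), and the pairing comes from the replicate numbers in the labels. A gene not above background on any array of one time is given as a bound. The bound sets the mean of the brighter time against, per array, the higher of the dim probe's own value and the lowest value among probes above background. The number of arrays limits the precision. The median SE over genes was 0.095.

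Genes are named by rule: the 15 largest rises and 15 largest falls that went the same way in all 8 pairs, up to 5 called members of each list with the largest differences, some long-known targets, the 6 largest differences each way against 4 h, and the 4 largest differences in response between states. Members and lists were chosen with earlier results of these data known. Alternatives were neqc values, median scaling, other filters and probes, slide as a block, each state alone, no replicate block, and leaving out each array or number. Promoter sequences are RefSeq's.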

Additional observations from a re-analysis of the deposited data

Results flagged for a closer look

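In 23 of 342 sets of 8 arrays of one time, covering the levels of the genes named above and 2 measures of array quality, 1 array stood apart from the other 7 by Dixon's test. Chance gives about 1 in 20. At 0 h 1 array was higher than the other 7 for ART3 (5.04 in siNS number 1, the others 4.68 to 4.83), BCL3 (8.28 in siNS number 1, the others 7.90 to 8.08) and CIDEC (4.93 in siNS number 3, the others 4.68 to 4.77). The same was seen at 0 h for FAM107A (5.45 in NI number 1, the others 4.65 to 4.88), IGF1 (4.79 in NI number 4, the others 4.60 to 4.68) and ITGA3 (12.13 in NI number 1, the others 11.38 to 11.72). The same was seen at 0 h for KCNJ16 (5.64 in siNS number 3, the others 5.04 to 5.29) and KLF15 (5.88 in NI number 1, the others 4.74 to 5.08). At 0 h 1 array was lower than the other 7 for ABCB1 (6.46 in NI number 1, the others 7.21 to 7.66), EVA1A (10.08 in siNS number 2, the others 10.70 to 11.09) and SCNN1A (6.35 in siNS number 1, the others 7.50 to 8.06). At 24 h 1 array was higher than the other 7 for CCL2 (5.96 in siNS number 3, the others 4.83 to 5.27), CLPSL1 (10.85 in siNS number 2, the others 9.41 to 9.95) and OSMR (8.40 in siNS number 1, the others 7.31 to 7.73). The same was seen at 24 h for PMEPA1 (9.79 in siNS number 3, the others 8.99 to 9.36), TIMP3 (5.96 in NI number 2, the others 4.85 to 5.29) and TNFRSF11B (6.50 in siNS number 3, the others 5.66 to 5.99). At 24 h 1 array was lower than the other 7 for ACTL8 (9.88 in NI number 2, the others 10.84 to 11.64), ARC (5.18 in siNS number 2, the others 5.62 to 6.00) and FABP5 (10.03 in siNS number 2, the others 10.49 to 10.74). The same was seen at 24 h for IRF1 (7.20 in siNS number 1, the others 7.64 to 8.01), PER1 (5.41 in NI number 3, the others 6.23 to 6.53) and SLC25A18 (10.27 in NI number 2, the others 10.67 to 10.93).

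The 24 h response differed between siHic5_2 and control cells for 930 genes by limma's test of the difference itself. The fitted differences in response were -4.89 for TEDDM1, -4.09 for CIDEC, 4.12 for RP1L1 and 3.77 for ARC. For TEDDM1, CIDEC and RP1L1 these rest on groups at background, so they depend on the background level and are not sizes. The value of ARC depends on that level in part, since few control arrays were above background at 24 h. Their levels are given with the comparison of the states.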

How the results depend on the processing

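The count of genes called at 24 h against 0 h (6975) stayed within 1.5 times under every alternative run, from 4910 with NI arrays only to 7250 with no filter on dim probes, and with a difference of at least 1 required it was 1597. With no replicate block it was 6137. The replicate block also moved the counts against 4 h (6741 with it, 5711 without) and for the siHic5_2 difference (930 and 726), each by less than 1.5 times, and the siNS against NI count stayed at 0. Leaving out 1 array gave 6701 to 6964 genes, leaving out a replicate number 6329 to 6592. Against 4 h these ranges were 6527 to 6758 and 6011 to 6227. The siHic5_2 count was the least stable: 487 with median scaling, 642 to 1075 without 1 array, and 358 to 742 without a number (496, 599 and 358 without number 2, 3 and 4). The cause was not tested, beyond the fewer arrays of the last fits. Median scaling moved the median of all genes from -0.01 to -0.10, so rises lost more calls than falls. Sterol genes were 3 higher and 10 lower without number 2 and 7 and 5 without number 4, so they have no settled direction. Within the 4 slides that hold both times, 90.2 to 98.4% of called genes kept their sign. Each slide's arrays were part of the fit that called these genes, so a high share was largely built in. Of the 169 genes with values in the text, KLF6 turned its sign within slide 4 (0.55), TEK within slides 1 (0.15) and 4 (0.24), TGFA within slide 1 (0.16) and LPL within slides 2 (0.17) and 6 (0.14). The threshold was missed by KLF6 in 18 settings, TEK in 4, LPL in 3, PPARG in 2, and TGFA and HPRT1 in 1 each. The other genes kept direction and call in every refit, while within single slides, which give values without a test, 260 values moved by more than the replicate SD. Signal near background limits what can be said of dim genes, given as bounds.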

Other observations

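The arrays with replicate number 1 differed from the others at both times and in both states. Fitted as number 1 against the other 3 numbers, 2724 of 10923 genes were called, 1065 higher and 1659 lower, and 306 of them differed by at least 1. The largest differences were those of ZNF483 (3.25), LMOD3 (3.14) and MYO3B (3.11), higher in the arrays of number 1, and COPG2 (-2.79), lower in them. Among the gene lists, 7 of 14 corticosteroid receptor and chaperone genes, 7 of 22 respiratory chain genes and 6 of 22 hypoxia and glycolysis genes were lower in number 1 and 0 higher, and 5 of 13 IL-6 family genes were higher and 1 lower. Of 31 glucocorticoid-induced genes 1 was higher and 1 lower. Over all 10923 genes 1659 were lower and 1065 higher, against which these list counts are to be read. These genes and lists were chosen after their values were seen.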
